A study of Mus musculus with 60 samples.

Results

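Open chromatin in mouse dorsal root ganglia was compared directly between a peripheral and a central injury of the same neurons. The comparison used 6 of the 12 ATAC samples, and of the 60 samples of the series: 3 taken after sciatic nerve axotomy (SNA) and 3 after dorsal column axotomy in the spinal cord (DCA). A further 6 ATAC samples from the surgeries without axotomy, 3 after sham sciatic surgery (Sham) and 3 after laminectomy (Lam), gave the difference between surgeries measured the same way. All animals were C57BL/6 mice aged 6 to 8 weeks with no transgene named in the labels. L4-L6 ganglia were taken 24 h after surgery, from 1 mouse per ATAC sample. The authors deposited 1 peak list per surgery, made from the 3 samples together, so no difference between the injuries below has a replicate check or a p-value. A gene was given the peaks that lie in its body or within 10 kb of either end. It was counted as having more open regions in one injury when that list held at least 4 more peaks and at least 2 times as many.

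A dorsal root ganglion neuron sends one branch into a peripheral nerve and another up the dorsal columns, in the cord. Cutting the peripheral branch starts a growth program with transcription factors such as Atf3, Jun, Sox11 and Stat3, and the axon regrows. Cutting the central branch of the same neuron starts little of this program, and the axon does not regrow. ATAC-seq uses the transposase Tn5 to insert adapters where DNA is accessible, so that promoters and enhancers in use stand out as peaks. The ganglion also holds satellite glia, Schwann cells and macrophages, and in whole tissue fewer cells of a type and less open DNA per cell cannot be told apart.

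The sequences below show how the difference between the injuries looked at gene starts. Each is the RefSeq promoter on GRCm38.p6, 250 bases before to 50 after the gene start, read along the gene's strand. Capitals mark letters that match TGANTCA (the site of AP-1 factors such as Jun), TGACGTCA (the site of ATF and CREB factors), GGGCGG (the GC box) or CCAAT on either strand, and matches may overlap. The window of Amer2 (chr14:60377442-60377741, plus strand), a membrane protein that restrains Wnt signalling, overlapped a peak in the SNA list and in no other. Within 1 kb of the listed Amer2 start, however, both SNA and DCA had a peak, so its start did not count as open in SNA alone. The windows of Csrp3 (chr7:48848002-48848301, minus strand), a muscle LIM protein that also belongs to the regeneration-associated genes, and Ifitm3 (chr7:141010695-141010994, minus strand), an interferon-induced antiviral membrane protein, overlapped a peak in the DCA list alone. The window of P4ha3 (chr7:100285270-100285569, plus strand), a subunit of the collagen prolyl hydroxylase, had a peak in every list except DCA. The window of Cd3eap (chr7:19359434-19359733, minus strand), a subunit of RNA polymerase I, had a peak in every list except SNA. The window of Cacna2d1 (chr5:15934441-15934740, plus strand), whose call held under every way of counting tried here, had a peak in all 4 lists.
Amer2: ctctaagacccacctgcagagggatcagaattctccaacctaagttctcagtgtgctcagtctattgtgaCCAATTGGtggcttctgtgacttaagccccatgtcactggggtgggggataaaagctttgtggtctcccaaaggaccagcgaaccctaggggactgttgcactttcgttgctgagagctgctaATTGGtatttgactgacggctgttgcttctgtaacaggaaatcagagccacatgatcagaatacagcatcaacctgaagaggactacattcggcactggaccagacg
Csrp3: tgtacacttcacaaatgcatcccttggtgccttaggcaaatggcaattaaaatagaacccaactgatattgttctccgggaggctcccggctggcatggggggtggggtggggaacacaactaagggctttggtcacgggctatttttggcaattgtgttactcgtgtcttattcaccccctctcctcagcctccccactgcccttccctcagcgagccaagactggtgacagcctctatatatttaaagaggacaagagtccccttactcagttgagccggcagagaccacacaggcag
Ifitm3: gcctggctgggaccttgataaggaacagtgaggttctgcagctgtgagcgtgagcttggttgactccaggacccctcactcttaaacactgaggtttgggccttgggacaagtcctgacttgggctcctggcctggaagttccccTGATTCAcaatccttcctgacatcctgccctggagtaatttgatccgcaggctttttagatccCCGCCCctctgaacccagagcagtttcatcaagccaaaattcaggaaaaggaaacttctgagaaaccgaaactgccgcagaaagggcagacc
P4ha3: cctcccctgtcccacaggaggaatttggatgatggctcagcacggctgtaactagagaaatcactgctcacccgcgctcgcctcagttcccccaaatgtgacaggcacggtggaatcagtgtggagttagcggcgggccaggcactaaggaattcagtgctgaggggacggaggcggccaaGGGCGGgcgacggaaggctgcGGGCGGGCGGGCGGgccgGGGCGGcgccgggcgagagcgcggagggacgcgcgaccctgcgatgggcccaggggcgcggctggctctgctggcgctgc
Cd3eap: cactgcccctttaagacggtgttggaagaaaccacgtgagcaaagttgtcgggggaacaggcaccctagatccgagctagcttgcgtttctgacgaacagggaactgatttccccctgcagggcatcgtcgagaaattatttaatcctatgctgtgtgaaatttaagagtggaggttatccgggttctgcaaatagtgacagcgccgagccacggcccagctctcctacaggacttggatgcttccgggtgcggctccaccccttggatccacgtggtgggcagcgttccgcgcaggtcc
Cacna2d1: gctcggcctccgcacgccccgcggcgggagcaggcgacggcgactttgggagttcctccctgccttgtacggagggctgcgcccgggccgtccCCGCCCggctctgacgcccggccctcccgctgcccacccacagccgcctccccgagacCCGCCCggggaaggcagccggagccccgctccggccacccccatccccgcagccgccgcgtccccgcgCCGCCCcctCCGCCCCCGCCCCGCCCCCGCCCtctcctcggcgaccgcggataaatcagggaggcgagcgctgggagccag

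Of these 6 windows, that of Ifitm3 held 1 TGANTCA match and those of the other genes held none. TGANTCA was present in 6.99% of 21263 mouse promoters of this length, TGACGTCA in 2.23%, GGGCGG in 46.2% and CCAAT in 38.2%. GGGCGG matched 7 times in the Cacna2d1 window and 5 times in the P4ha3 window. The Amer2 window held 3 CCAAT matches and no GGGCGG. A match is a string of letters and does not show that a factor was bound.

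The lists differed in size and strength before any gene was considered. SNA held 174605 peaks and DCA 164365, and the authors' −log10 q was 5 or more for 35056 and 26768 of them. The background recovered from the peaks was 17.3 reads in SNA and 18.4 in DCA, so the list with more strong peaks had the lower background. On chromosomes 1 and 10 to 18 the log2 ratio of SNA to DCA peaks lay between −0.08 and 0.04, and on chromosomes 2 to 9 and 19 between 0.11 and 0.18. Among peaks with a −log10 q of 5 or more the same ratios were 0.34 to 0.49 and 0.29 to 0.49, so only weak peaks showed the split. Its part in the results on all peaks was not tested beyond recounting the genes with equal peak numbers per chromosome. The 5 sensory neuron markers counted (Avil, Prph, Isl1, Pou4f1 and Scn10a) had peaks in all 4 lists, with 54 peaks in SNA and 61 in DCA together. The 3 satellite glia markers held 17 and 18 peaks, the Schwann cell marker Sox10 4 and 4, and the 3 macrophage markers 21 and 17. The part of these cell types in the results below was not tested. Olfactory receptor genes, which ganglia are not known to use, had at least 1 peak in 41.2% of cases in SNA and 44.1% in DCA, so the presence of a peak near a gene was not specific to genes used in this tissue.

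More genes had extra open regions after the peripheral injury than after the central one, but surgeries without axotomy differed in more genes still. Of 19130 protein-coding genes with a peak in either list, 603 had more in SNA (3.15%) and 279 had more in DCA (1.46%). Any difference at all favoured SNA in 45.8% of the genes and DCA in 33.7%, and 3917 genes had equal numbers. Between Lam and Sham, by the same rule, 882 of 19093 genes had more in Lam (4.62%) and 401 more in Sham (2.1%). Genes that differed between the injuries made up 4.61% of those tested, against 6.72% between the control surgeries. Of the 603 genes with more in SNA, 484 also had more SNA peaks than either control list, and in 373 DCA had fewer than either control. Of the 279 genes with more in DCA, 220 had more DCA peaks than either control list, and in 163 SNA had fewer than either control. Both sets were chosen by the same SNA and DCA numbers, so these counts were partly built into the choice and are no separate support. With equal peak numbers on every chromosome, 448 of the 603 and 278 of the 279 were still called, and the totals were 451 and 382 genes.

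**Figure D1:**
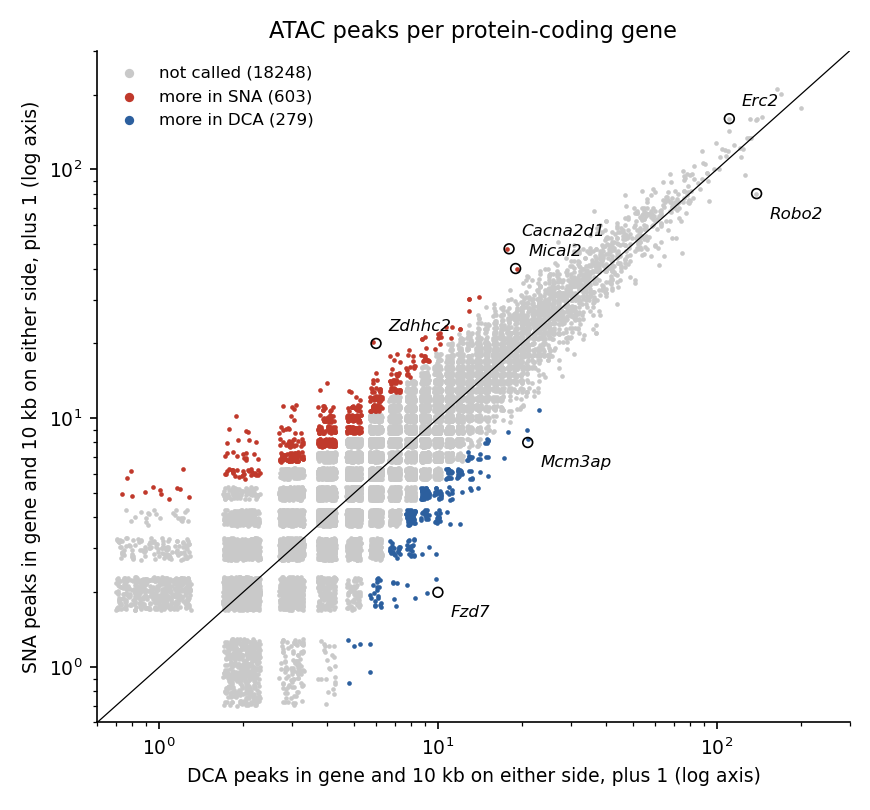
ATAC peaks per protein-coding gene in the DCA list (horizontal) and the SNA list (vertical), each plus 1 on log axes, counted in the gene and 10 kb on either side; each point is a gene, moved by up to 0.3 to separate ties, and the line marks equal numbers. The 603 genes with more peaks in SNA lie above the line and the 279 with more in DCA below it, and Robo2 and Erc2 show large differences of under 2 times.

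The 12 genes that stood out most towards SNA, by the difference divided by the square root of the sum, were led by Cacna2d1. It encodes the alpha2delta-1 subunit of voltage-gated calcium channels, which binds gabapentin. Cacna2d1 held 47 peaks in SNA, 17 in DCA, 21 in Sham and 30 in Lam. The SNA number was the highest and the DCA number the lowest of the 4. Zdhhc2, a palmitoyltransferase that adds lipid to synaptic proteins, held 19 peaks in SNA, 5 in DCA, 2 in Sham and 7 in Lam. Mical2, an actin-oxidizing enzyme of the MICAL family, held 39 in SNA, 18 in DCA, 23 in Sham and 34 in Lam, so Lam lay nearer to SNA than to DCA. Ptpro, a receptor tyrosine phosphatase of neurons, held 29 in SNA, 12 in DCA, 16 in Sham and 15 in Lam. For Ptpro SNA stood clear of the other 3 lists, which lay close to one another. At Zdhhc2 SNA was also the highest list, but the control surgeries differed there, with 2 peaks in Sham and 7 in Lam. Pdzrn3, a ubiquitin ligase with PDZ domains, held 29, 12, 20 and 17 peaks in the same order of lists. Pip4k2a, a phosphoinositide kinase, held 30, 13, 19 and 20.

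The rest of this group held fewer peaks. Amer2 held 9 peaks in SNA, 1 in DCA, 2 in Sham and 7 in Lam. Parp11, an ADP-ribosyltransferase, held 13, 3, 6 and 9 in the same order. For Amer2 and Parp11 Lam lay nearer to SNA, so DCA and Sham were the low lists. Creg2, a secreted glycoprotein, held 8, 1, 2 and 1, and SNA alone was high. Tmem165, a Golgi protein needed for glycosylation, held 8, 1, 3 and 4, and Zp3r, an acrosomal sperm protein, held 8, 1, 2 and 3. Tpst2, which sulphates tyrosines in the Golgi, held 12, 3, 4 and 10.

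The 12 genes that stood out most towards DCA included the axon guidance genes Dcc and Sema5a. Fzd7, a Wnt receptor, held 1 peak in SNA, 9 in DCA, 3 in Sham and 3 in Lam. DCA stood above all other lists at this gene. Dcc, the netrin receptor that guides axons, held 8 in SNA, 20 in DCA, 22 in Sham and 8 in Lam. Sham and DCA were alike at Dcc, so its difference between the injuries also separated the control surgeries. Sema5a, a semaphorin that can attract or repel axons, held 10 in SNA, 22 in DCA, 17 in Sham and 11 in Lam, with Sham again nearer to DCA. Lin28b, which blocks maturation of let-7 microRNAs, held 3 peaks in each of Sham, SNA and Lam and 11 in DCA. Ddhd1, a phosphatidic acid phospholipase, held 4 in SNA, 13 in DCA, 5 in Sham and 5 in Lam. At Lin28b and Ddhd1 DCA alone was high.

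The remaining genes of this group were enzymes and proteins of varied function. Mcm3ap, which takes part in export of RNA from the nucleus, held 7 peaks in SNA, 20 in DCA, 5 in Sham and 12 in Lam. Mknk1, the kinase of the translation factor eIF4E, held 6, 16, 10 and 10 in the same order. Btbd10 held 1, 7, 1 and 3. Pla2g4a, the cytosolic phospholipase that releases arachidonic acid, held 0, 5, 1 and 1, and G6pc, the liver glucose-6-phosphatase, held 0, 5, 4 and 2. SNA had no peak at either of these genes, and at G6pc Sham lay close to DCA. Henmt1, which methylates piRNAs, held 1, 8, 8 and 2, and BC049715 held 1, 7, 4 and 4.

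**Figure D2:**
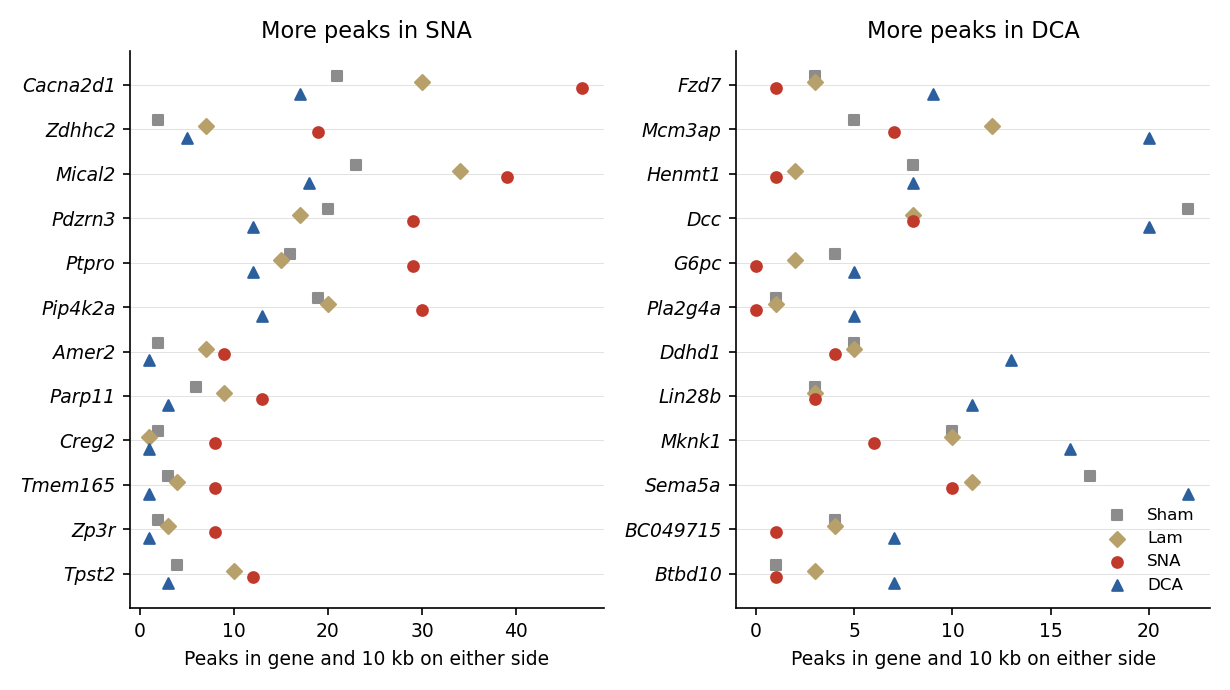
Number of ATAC peaks in the gene and 10 kb on either side (horizontal) for the 12 genes that stood out most towards SNA (left) and the 12 towards DCA (right), with 1 symbol per surgery list. Cacna2d1 runs from 17 peaks in DCA to 47 in SNA, and at Dcc and Henmt1 Sham lies with DCA.

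Cacna2d1 was the only one of the 882 genes whose call held under all 7 ways of counting planned here. The gene spans 440 kb (chr5:15934264-16374511). In the gene body alone it held 46 SNA peaks and 17 DCA peaks. Counting only regions seen in 1 of the 2 lists, it held 37 in SNA and 7 in DCA. Peaks with a −log10 q of 5 or more numbered 9 in SNA, 1 in DCA, 3 in Sham and 2 in Lam. The one strong DCA peak lay at the gene start, where SNA, Sham and Lam also had a strong peak. The other 8 strong SNA peaks lay between 25.3 and 416 kb into the gene, and their −log10 p ran from 7.93 to 14.0. Of the 9 strong SNA peaks, 6 overlapped a DCA peak of any strength, 6 a Lam peak and 2 a Sham peak. None of the 9 overlapped an H3K27ac or H3K9ac peak of the SNA lists, and Cacna2d1 as a whole held 0 H3K27ac peaks in both injuries.

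**Figure D3:**
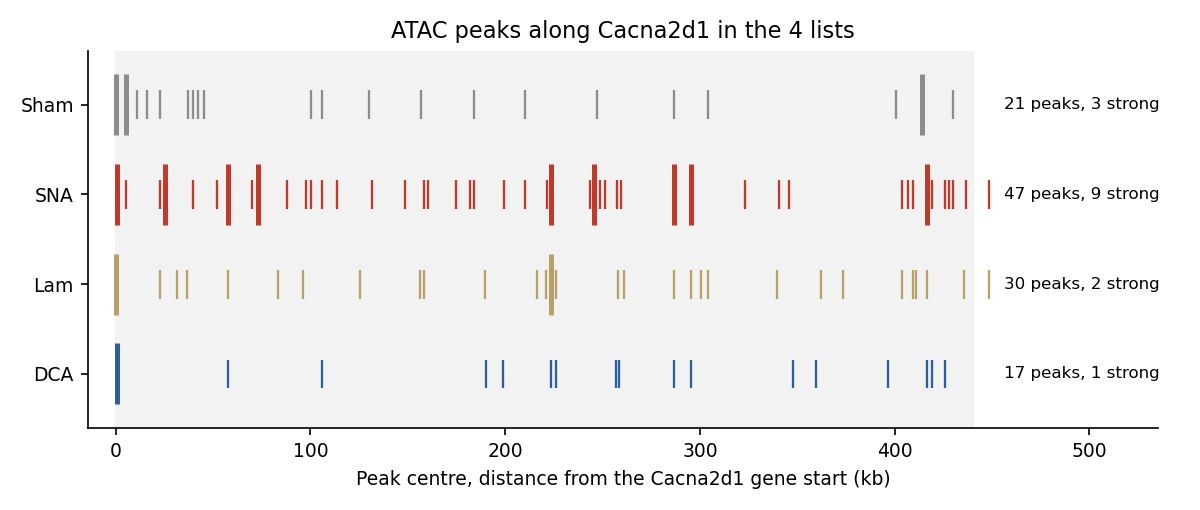
Centres of ATAC peaks along Cacna2d1, in kb from the gene start, in the 4 lists; tall thick marks are peaks with a −log10 q of 5 or more, short thin marks are weaker peaks, and the shaded span is the gene body. SNA has 47 peaks of which 9 are strong, and DCA has 17 of which 1 is strong.

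Some very long genes differed by many peaks without reaching 2 times as many in one list. The genes given here were chosen after their values were seen. Robo2, a receptor for the Slit guidance proteins, held 79 peaks in SNA, 138 in DCA, 128 in Sham and 164 in Lam. SNA was the lowest list at Robo2 by a wide margin. Robo1 held 28 in SNA, 43 in DCA, 71 in Sham and 38 in Lam. At Robo1 Sham stood apart from all the other lists. Erc2, a protein of the presynaptic active zone, held 159 in SNA, 110 in DCA, 93 in Sham and 136 in Lam. Tnik, a kinase of the Wnt pathway, held 67, 35, 27 and 36 in the same order, and only SNA was high. Strong peaks did not show the Robo2 difference, with 22 in SNA, 18 in DCA, 20 in Sham and 22 in Lam.

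Strong peaks gave another set of genes. With a −log10 q of 5 or more, 313 of 16487 genes had more in SNA (1.9%) and 20 had more in DCA (0.121%). Between Lam and Sham the numbers were 38 (0.248%) and 45 (0.293%) of 15350 genes. Of the 313 genes, 307 had more strong peaks in SNA than in any other list, but only 5 were also among the 603 found with all peaks. The 313 were chosen by their strong SNA and DCA peaks, so SNA ranking highest was partly built into the choice. Strong peaks also numbered 35056 in SNA against 21157 in Sham and 20850 in Lam. The 313 genes were long, with a median of 178 kb against 22.6 kb for all genes with a strong peak. The SNA list had more strong peaks as a whole, and with the 25000 strongest peaks of each list, an alternative added after the data were seen, the numbers were 56 in SNA (0.351%) and 59 in DCA (0.37%). Of the 313 genes 55 were called there, and of the 20 genes 16. At that limit Lam against Sham gave 92 (0.58%) and 70 (0.441%).

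Genes with the clearest excess of strong SNA peaks included axonal, guidance and calcium channel genes, named here after their values were seen. Ank2, the ankyrin that anchors membrane proteins along axons, held 43 strong peaks in SNA, 17 in DCA, 18 in Sham and 16 in Lam. Slit1, a ligand of the Robo receptors, held 13 in SNA, 1 in DCA, 0 in Sham and 1 in Lam. At both genes the other 3 lists lay within 2 peaks of one another. Cacna1b, the pore of N-type calcium channels at sensory nerve terminals, held 13 in SNA, 2 in DCA, 1 in Sham and 6 in Lam. Dscam, an adhesion molecule that keeps neurites of one cell apart, held 13, 2, 4 and 3 in the same order. Zfp536, a zinc finger repressor of neuronal differentiation, held 12, 2, 2 and 3. Atrnl1, an attractin-like membrane protein, held 34, 12, 7 and 12, but it was not called with the 25000 strongest peaks. Ryr2, a calcium release channel of the endoplasmic reticulum, held 15, 4, 5 and 4, and Dab1, the adaptor of reelin signalling, 16, 5, 6 and 8.

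The excess at these genes was partly one of strength. Of 2513 strong SNA peaks at the 313 genes, 23.1% overlapped a strong DCA peak, 41.6% a weaker DCA peak and 35.3% no DCA peak. Over all 35056 strong SNA peaks the shares were 48.4%, 29.2% and 22.4%. The 313 genes were chosen for having fewer strong DCA peaks than strong SNA peaks. Their lower share with a strong DCA partner was thus partly built into the choice and is no separate support. At Slit1, 7 of the 13 strong SNA peaks overlapped a DCA peak of lower strength. With all peaks, Slit1 held 45 in SNA and 34 in DCA, and Cacna1b held 42 and 48, so Cacna1b had fewer peaks in SNA but more strong ones.

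Few genes had more strong peaks in DCA. Slc9a3, a sodium-proton exchanger, held 1 strong peak in each of Sham, SNA and Lam and 7 in DCA. Foxn1, a transcription factor of thymus and skin, held 0 in each of the other lists and 4 in DCA. Rcor1, the CoREST corepressor that silences neuronal genes with REST, held 1 in SNA, 6 in DCA, 3 in Sham and 2 in Lam. Kif1a, the kinesin that carries synaptic vesicle precursors along axons, held 2 in SNA, 6 in DCA, 1 in Sham and 2 in Lam. In these 4 genes DCA was the single high list. With all peaks none of the 4 had more in DCA: Foxn1 held 13 in SNA and 9 in DCA, Rcor1 16 and 11, Kif1a 23 and 22, and Slc9a3 17 in each.

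Among 38 gene classes, the regeneration-associated genes stood furthest above all genes relative to their counting error. Their 40 genes held 355 distinct peaks in SNA, 265 in DCA, 238 in Sham and 284 in Lam, a log2 ratio of SNA to DCA of 0.42 (95% counting interval 0.19 to 0.65). Over all genes the ratio was 0.10. SNA held more peaks in 22 of the 40 genes (55%, background 45.8%) and DCA in 9 (22.5%, background 33.7%). Sox11, Gal, Stat3, Stmn4, Cacna2d1 and Flrt3, 6 of the 40, met the rule for more in SNA (all genes 3.15%). Csrp3 and Chl1, 2 of the 40, met that for more in DCA (all genes 1.46%). Without Cacna2d1 the class ratio was 0.31. With all 40 genes it was above the all-gene ratio in all 9 ways of counting, 2 of them added later, and ranged from 0.29 to 0.92. The same ratio between Lam and Sham was 0.25, with 0.11 over all genes.

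Members of the regeneration program did not share one pattern. Stat3, the transcription factor activated by gp130 cytokines, held 20 peaks in SNA, 9 in DCA, 7 in Sham and 15 in Lam. Lam lay between the injuries at Stat3. Sox11, a growth-promoting SoxC factor, held 6 in SNA, 2 in DCA, 2 in Sham and 1 in Lam, so SNA alone was high. Gal, the neuropeptide galanin, held 5 in SNA, 1 in DCA, 3 in Sham and 6 in Lam. At Gal DCA was the low list, and Lam was as high as SNA. Atf3, the classic marker of axotomized neurons, held 6 in SNA, 7 in DCA, 1 in Sham and 6 in Lam, and Gap43, a growth cone protein, held 8, 6, 1 and 4, so both were low in Sham alone. Jun held 4, 3, 4 and 2, and Sprr1a, a small proline-rich protein of regenerating neurons, 1, 2, 1 and 0. Csrp3 held 2, 7, 7 and 5, and Chl1, a close homolog of the adhesion protein L1, 3, 7, 6 and 7. Sema6a, a transmembrane semaphorin, held 30, 19, 12 and 16 with all peaks and 8, 3, 1 and 4 with strong peaks.

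The other classes at the upper end were small or did not hold among strong peaks. The 19 sensory neuropeptide genes held 66 peaks in SNA and 48 in DCA (log2 ratio 0.46, interval −0.07 to 0.99), with 12 genes higher in SNA (63.2%, all genes 45.8%) and 3 in DCA (15.8%, all genes 33.7%). Gal was the only one of the 19 called, against 3.15% of all genes called for more in SNA. The 17 Kruppel-like factors, some of which promote and some of which restrain axon growth, held 130 and 102 peaks (0.35, interval −0.02 to 0.72). Klf7, which promotes axon growth, held 24 in SNA, 16 in DCA, 19 in Sham and 17 in Lam, and its strong peaks numbered 8, 4, 1 and 4. Klf9, which restrains axon growth, held 13, 7, 8 and 12. Among strong peaks the Kruppel-like ratio was 0.11 against 0.34 over all genes, so the class then lay below the background. The gp130 cytokine and STAT pathway held 311 and 264 peaks (0.24, interval 0.00 to 0.47), with 21 of the 34 genes that had a peak higher in SNA (61.8%, all genes 45.8%) and 8 in DCA (23.5%, all genes 33.7%). Within it Lifr, the receptor subunit for LIF, held 36, 26, 24 and 26 peaks, and Pias1, an inhibitor of STAT signalling, held 6, 12, 6 and 13 and met the rule for more in DCA. The ratio of this pathway between Lam and Sham was 0.34, larger than that between the injuries. The 57 clustered protocadherin genes, adhesion molecules whose genes overlap and share many of their peaks, held 65 and 57 distinct peaks (0.19, interval −0.32 to 0.70), and 0 were called.

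At the lower end no class differed from all genes by more than its counting error except the axon guidance and olfactory receptor genes. The 75 axon guidance genes held 1171 distinct peaks in SNA, 1203 in DCA, 1151 in Sham and 1161 in Lam (log2 ratio −0.04, interval −0.15 to 0.08), below the 0.10 of all genes. SNA held more in 36 of them (48%, all genes 45.8%) and DCA in 30 (40%, all genes 33.7%). The rule for more in SNA was met by 0 of the 75 (all genes 3.15%). That for more in DCA was met by 2, Sema5a and Dcc (all genes 1.46%). Strong peaks gave the opposite picture, with 263 in SNA, 170 in DCA, 140 in Sham and 147 in Lam (0.63 against 0.34 over all genes). On strong peaks 9 of the 75 met the rule for more in SNA (all genes 1.9%) and 0 for more in DCA (all genes 0.121%). These were Plxna2, Plxna4, Sema6a, Sema6d, Ephb1, Slit1, Slit3, Ntn1 and Unc5a. They include receptors and ligands of the plexin, semaphorin, ephrin, Slit and netrin families. Genes called for more strong SNA peaks were long in general (median 178 kb, 22.6 kb for all genes with a strong peak). The part of gene length in the share of guidance genes called was not tested. Plxna4 held 15 strong peaks in SNA, 7 in DCA, 4 in Sham and 3 in Lam, and Slit3 held 14, 4, 1 and 3. With the 25000 strongest peaks of each list the class ratio was 0.19 against 0.01 over all genes, and of the 9 genes only Slit1 was called.

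The channel and receptor classes did not move as one among strong peaks. The voltage-gated calcium channel genes held 728 peaks in SNA and 703 in DCA (0.05), and 122 and 73 strong ones (0.74). With the 25000 strongest peaks their ratio was 0.04, close to that of all genes. TRP and Piezo channel genes were at 0.09 with all peaks and 0.59 with strong peaks, and potassium channel genes at 0.10 and 0.26. With strong peaks the sodium channel genes were at 0.12 and the opioid and cannabinoid receptor genes at 0.07, below the 0.34 of all genes. Sodium channel genes were at −0.09 with all peaks, and Scn10a, the pain neuron channel Nav1.8, held 29 peaks in SNA, 34 in DCA, 17 in Sham and 29 in Lam. Opioid and cannabinoid receptor genes were at −0.06, and Oprm1, the mu opioid receptor, held 11, 6, 11 and 9. Napepld, which makes the lipid anandamide, held 3, 10, 6 and 7 and met the rule for more in DCA. Sodium channel and opioid classes had ratios of 0.43 and 0.38 between Lam and Sham, further from 0 than those between the injuries. Piezo2, the touch channel, held 20 strong peaks in SNA, 10 in DCA, 5 in Sham and 8 in Lam.

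Housekeeping, silent and non-neuronal classes lay near all genes or below them. Olfactory receptor genes were at −0.12 (interval −0.28 to 0.05), replication-dependent histone genes at −0.03, keratin genes at 0.00 and cytosolic ribosomal protein genes at 0.00. Vomeronasal receptor genes were at 0.12 between the injuries and −0.54 between Lam and Sham. Macrophage and inflammatory genes held 119 peaks in SNA and 110 in DCA (0.11), and satellite glia and Schwann cell genes 166 and 152 (0.13), both close to all genes. AP-1 and ATF/CREB factors, the family of Jun and Atf3, held 217 and 201 (0.11), and of the 32 genes 0 met the rule for more in SNA and 2 for more in DCA, with 3.15% and 1.46% over all genes. The 2 were Batf, with 4 peaks in SNA, 8 in DCA, 3 in Sham and 5 in Lam, and Mafk, with 4, 11, 5 and 9.

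**Figure D4:**
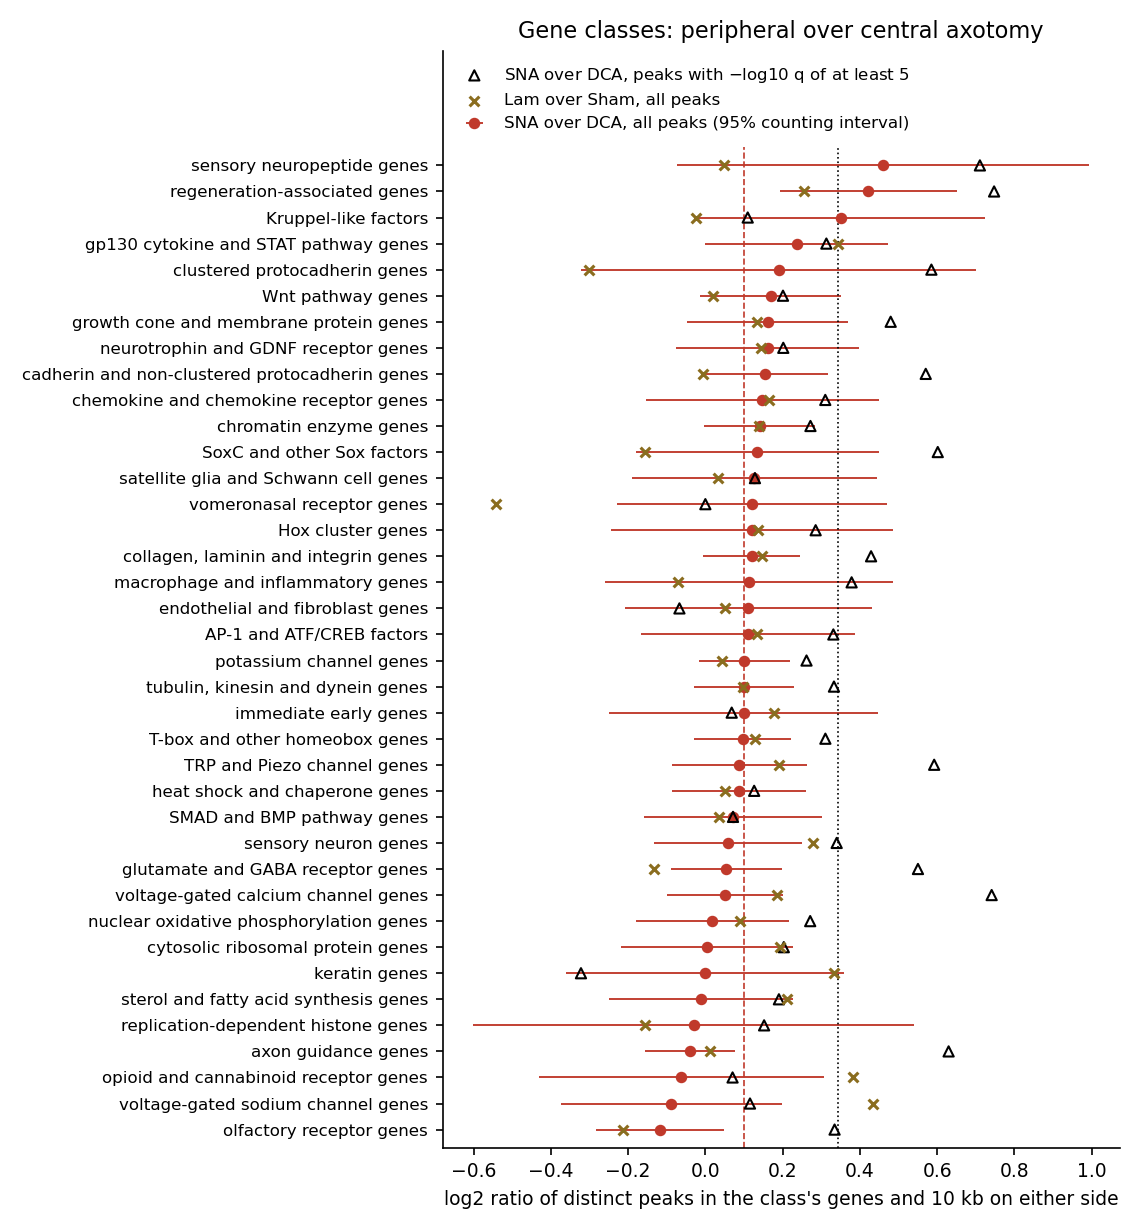
log2 ratio of distinct ATAC peaks in the genes of 38 classes and 10 kb on either side, SNA over DCA with all peaks (filled circles, bars are 95% counting intervals) and with peaks of −log10 q of 5 or more (open triangles), and Lam over Sham (crosses); the dashed line (0.10) and the dotted line (0.34) give all genes for the circles and the triangles. Regeneration-associated genes lie to the right of both lines, and axon guidance genes lie left of the dashed line with all peaks and right of the dotted line with strong peaks.

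Gene starts were open in both injuries far more often than in one. Of 17492 genes with a listed start, 11624 had a peak within 1 kb of it in both lists. A peak in SNA alone stood at 670 (5.2% of the 12875 genes open in either) and a peak in DCA alone at 581 (4.51%). Lam alone had 753 (5.93%) and Sham alone 698 (5.5%), so the injuries differed at no more starts than the control surgeries. Of the 670 starts 242 were also closed in both controls, and of the 581 starts 241. Promoters with a peak in both lists held GGGCGG in 68.0% of cases, those with a peak in SNA alone in 31.2% and those with a peak in DCA alone in 25.1%. Their mean GC content was 62.6%, 54.2% and 53.2%, and its part in the motif shares was not tested. TGANTCA was present in 10.1% (interval 8.37% to 12.2%) of promoters with a peak in SNA alone and 8.82% of those in DCA alone, and in 11.1% of those with no peak. The share in DCA alone lay inside the interval of SNA alone.

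The strongest peaks of each list mostly had a partner in the other. In the weakest 10% of the SNA list 73.1% of peaks had no DCA partner, and in the strongest 10% the share was 6.86%. For DCA the shares were 72.3% and 5.20%. Among the strongest 10% of Lam and of Sham the shares were 8.05% and 7.89%, above those of the injuries. SNA peaks without a DCA peak were narrower than those with one, with medians of 375 and 581 bp, and 4.83% of them lay within 1 kb of a gene end against 21.0%. In the controls, 61.0% of the SNA-only peaks were in neither list and 9.36% in both, and for DCA-only peaks the shares were 63.4% and 8.35%. A −log10 p of at least 20 was reached by 15 peaks of SNA alone and 3 of DCA alone.

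**Figure D5:**
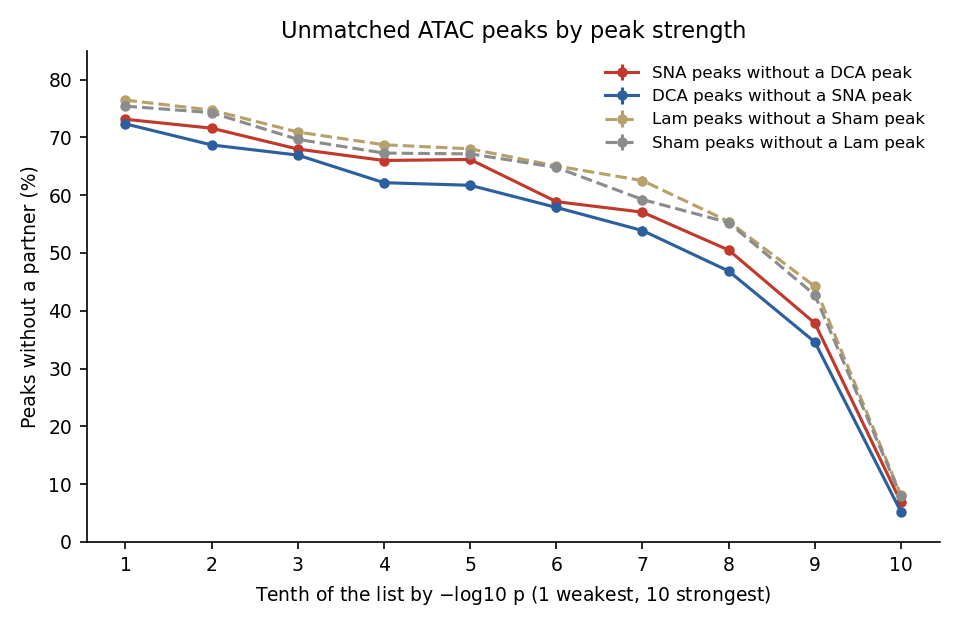
Share of peaks with no overlapping peak in the partner list (%), in steps of 10% of each list from the weakest to the strongest −log10 p, for SNA and DCA (solid) and Lam and Sham (dashed); bars are Wilson 95% intervals and are mostly smaller than the points. All 4 lines are lowest among the strongest peaks, with SNA at 6.86% and DCA at 5.20%.

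At gene ends, the strongest peaks of SNA alone were at Pabpc5, Abt1, Pxn, Ttc21b and P4ha3. Pxn encodes paxillin, an adaptor of focal adhesions that growth cones use to grip their substrate. Its peak (chr5:115491808-115492335) had a −log10 p of 22.2 and overlapped H3K9ac and H3K27ac peaks of SNA. P4ha3 had a peak of 1198 bp over its start with a −log10 p of 20.4, and it overlapped an H3K27ac peak of SNA. Sham also had a peak at each of these 5 places, and Lam at all but the one near Ttc21b. A DCA peak lay 432 bp from the Abt1 peak and another 1462 bp from the Pxn peak. The strongest peaks of DCA alone at gene ends were weaker, with a −log10 p of 17.4 at Ifitm3, 15.3 at Cd3eap, 14.6 at Nmt1, 13.3 at Lmod1 and 12.9 at Phf10. Nmt1 encodes a myristoyltransferase and Phf10 a subunit of BAF-family chromatin remodelling complexes, and neither peak was present in Sham or Lam. The peaks at Ifitm3 and Cd3eap were present in both controls and the one at Lmod1 in Sham, so at these 3 places SNA lacked a peak that a control had. All 5 DCA peaks overlapped an H3K9ac peak of DCA. Among all peaks with a −log10 q of 5 or more, 56.6% in DCA and 40.5% in SNA overlapped an H3K9ac peak. The 5 were also chosen for lying within 1 kb of a gene end, and the part of this in their overlap was not tested. Away from gene ends, and chosen after its value was seen, the strongest SNA peak without a DCA peak lay at chr3:8245212-8245635 with a −log10 p of 143. It was also present in Sham and Lam, and its nearest protein-coding gene was Stmn2, which encodes a growth cone microtubule regulator, 264 kb away. The DCA list also had a peak without an SNA partner inside Trpm8, the cold receptor channel, with a −log10 p of 17.8, but an SNA peak lay 163 bp from it.

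Histone acetylation, which was not used to choose the genes, did not separate the genes called with all peaks by injury. Over all genes the log2 ratio of SNA to DCA peaks was 0.64 for H3K27ac and −0.24 for H3K9ac, from 1 pooled list per injury and mark. At the 603 genes with more open regions in SNA these ratios were 0.61 and −0.33, and at the 279 with more in DCA they were 0.70 and −0.31. Genes of both directions thus lay near the ratio of all genes for each mark. At the 313 genes with more strong SNA peaks the H3K27ac ratio was 0.83, and SNA held more H3K27ac peaks in 201 of them (64.2%, all genes 47.4%) and DCA in 54 (17.3%, all genes 14.2%). Equal numbers of H3K27ac peaks were held by 58 of the 313 genes, against 7357 of all 19130. The 313 genes were long (median 178 kb, 22.6 kb for all genes with a strong peak). The part of gene length in these shares was not tested. The H3K9ac ratio at the 313 genes was −0.25. At the 20 genes with more strong DCA peaks the H3K27ac ratio was 0.63, and SNA held more in 13 (65%) and DCA in 3 (15%), so genes of both directions split alike. Ank2 held 34 H3K27ac peaks in SNA and 14 in DCA, and Sema6a held 36 and 12. Slit1 held 1 and 2 and Dab1 0 and 2, so these genes had more in DCA. There were 0 H3K27ac peaks in both lists at Cacna1b, Dscam, Ryr2, Robo2, Dcc and Gal.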

How the data were processed

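ATAC-seq peak lists of L4-L6 dorsal root ganglia were analysed, 1 per surgery, each pooling 3 samples per the labels. Coordinates are on mm10 per the submitters' processing notes. The aligner and peak caller are not given in the sources used here. The deposited fold enrichment is a ratio of pile-up to background. The deposited −log10 p and −log10 q are the authors' values for each peak, and served only to describe or filter peaks inside their own list. Other deposited columns, such as the integer score, were not used. H3K9ac and H3K27ac lists of SNA and DCA, pooled likewise by the authors, were read the same way.

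Intervals repeated for several summits were collapsed to 1 peak. Genes came from RefSeq on GRCm38.p6 (21887 protein-coding genes, of which 17492 had a listed start). The table gives no exons, so exon and intron were not assigned. A class was counted by distinct peaks, while neighbouring genes can share a peak. Peaks of separate lists were matched by an overlap of 1 bp. Read totals are not in the lists; whole reads matched the deposited −log10 p within 0.003 for 99.997% to 99.998% of peaks (recovered background 16.2 to 18.4 reads). Wilson intervals and the counting intervals of class ratios (peaks taken as independent counts) cover counting error only.

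The members, gene classes and rules were chosen with earlier results of these data known. Named genes were the 12 called genes per direction with the highest difference over the square root of the sum, the 5 strongest one-list peaks per list within 1 kb of a gene end, 2 members each way of the 5 highest and 5 lowest classes with at least 30 peaks, Atf3, Jun, Sox11, Sprr1a, Gal and Gap43, and calls that held under all 7 planned ways of counting. Strong-peak genes and long genes with large differences were added after the data were seen. Some genes, cell type markers among them, are not reported here. Counting was tested on simulated lists. Python 3.11.15, pandas 2.3.3 and scipy 1.17.1 were used.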

Additional observations from a re-analysis of the deposited data

How the results depend on the processing

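No paired analysis was possible because each list pools the replicates of its surgery, and for the same reason no replicate could be left out. The number of genes with more open regions was 603 in SNA and 279 in DCA. It was 313 and 20 with a −log10 q of 5 or more, 378 and 174 in the gene body alone, and 1314 and 563 with regions found in one list only. With the 25000 strongest peaks of each list, added after the data were seen, it was 56 and 59. Windows of 50 kb, equal list sizes, matched depth and equal numbers per chromosome gave counts within 1.5 times of these, and no gene called in one direction was called in the other in any of the 6 planned recounts. The share of SNA peaks without a DCA peak was 55.6%, and it was 67.1% with a reciprocal overlap of 50%, 42.4% when peaks within 1 kb also counted as shared, 51.6% with a −log10 q of 5 or more, 54.5% with equal list sizes, 54.4% with equal numbers per chromosome and 39.5% with the 25000 strongest peaks. In DCA it was 53.0%, and 65.0%, 39.8%, 36.9%, 54.5%, 54.5% and 39.5% in the same order. Chl1, Pias1 and Sema5a had more peaks in DCA with all peaks, but with a −log10 q of 5 or more SNA held 1, 3 and 1 more, and with the 25000 strongest peaks 1, 2 and 1 more. The cause of these moves was not tested. Depth per sample is unknown, and most peaks were weak, with a −log10 q of 5 or more for 20.1% of SNA peaks and 16.3% of DCA peaks.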

Other observations

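The genes below were chosen after their strong-peak values were seen, and they stand for no class. The tubulin, kinesin and dynein genes together had a strong-peak ratio of 0.33 against 0.34 over all genes, and of −0.02 with the 25000 strongest peaks of each list. Kif13a, a kinesin of endosomal transport, held 10 strong peaks in SNA, 3 in DCA, 1 in Sham and 2 in Lam. Kif26b, an atypical kinesin, held 11, 5, 4 and 3 in the same order, and Dync1h1, the heavy chain of the dynein that carries injury signals back to the cell body, held 7, 3, 2 and 3. SNA was the high list at all 3 genes. None of the 3 was called with the 25000 strongest peaks. Cdh13, a cadherin without a cytoplasmic domain, held 16, 8, 4 and 3.

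Mbp, the myelin basic protein of glia, held 8 strong peaks in SNA, 2 in DCA, 3 in Sham and 2 in Lam, and it was called with the 25000 strongest peaks as well. Runx1, a transcription factor of pain neurons, held 8, 3, 3 and 3. Stat2, of interferon signalling, went the other way with 2, 6, 1 and 3, so DCA was the high list. Elovl5, a fatty acid elongase, held 3, 7, 3 and 3.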
